A study of Homo sapiens with 24 samples.

Results

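The comparison described here is the transcript response to 2 Gy of gamma radiation, measured 4 h after exposure, in Ewing sarcoma cells in which SLFN11 had been knocked out. ES8 is a cell line from Ewing sarcoma, a tumour of bone and soft tissue driven by the EWSR1-FLI1 type of fusion protein, and the knockout cells were 1 derivative line of it, ES8-1F2, made with CRISPR/Cas9. The members were chosen by their titles: 3 arrays of knockout cells given 2 Gy and collected at 4 h, and 3 arrays of knockout cells given 0 Gy and collected at 4 h, 6 of the 24 arrays of the study. Both groups carry the knockout, and all cells were kept in DMEM/F12 medium with glutamine and 10% fetal bovine serum. The other arrays hold parental ES8 cells under the same doses and times and knockout cells at 24 h, with 3 arrays in each of the 8 groups. Since the knockout is 1 derivative line, effects of the missing gene and of that line's derivation cannot be told apart. The labels do not say that the 3 arrays of a group came from separate cultures, so p-values measure the spread between arrays alone, and that spread may be technical.

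Ionizing radiation breaks DNA on both strands, and the kinases ATM and ATR then hold cells at checkpoints before S phase and before mitosis. The checkpoint before mitosis keeps CDK1 with cyclin B inactive, so cells with replicated DNA do not divide while breaks persist. Genes for mitosis are transcribed late in the cycle from promoters that often hold a CHR element and CCAAT boxes, which bind the MuvB core complex with B-MYB or FOXM1 and the factor NF-Y, respectively. SLFN11 is a helicase-like protein that binds stalled replication forks in cells under replication stress and is known for making cells sensitive to DNA-damaging drugs.

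The SLFN11 signal, in log2 units as for every level below, was 6.40, 6.998 and 6.96 on the unirradiated knockout arrays and 6.33, 6.72 and 6.68 on the irradiated ones. On the unirradiated parental arrays at 4 h it was 8.19, 8.18 and 8.38, above every knockout array. Between the unirradiated groups the knockout line differed by −1.46 ± 0.13 (log2 difference ± SE, limma, adjusted p = 3.57e-10), and its remaining signal lay above the background level, taken on each array as the 95th percentile of 612 negative control probe sets and lying between 3.54 and 3.81 on the 6 arrays. The array reads the transcript and not the protein, and no label states which exon was edited. All 7 measured Ewing sarcoma markers were above background on all 6 arrays, among them CD99 and NKX2-2. Of the markers of other cell types, 4 of 9 for epithelium, 3 of 8 for blood, 3 of 7 for endothelium and 5 of 8 for fibroblasts were also above it on all 6 arrays, for example KRT19, CD14, CLDN5 and COL1A1. EPCAM and CDH1 of epithelium, PTPRC and CD3D of blood, PECAM1 and TEK of endothelium and DCN and LUM of fibroblasts were above it on none. The mean level of these lists ran from 4.203 to 4.26 at 0 Gy and 4.23 to 4.35 at 2 Gy for epithelium, from 3.73 to 3.78 and 3.67 to 3.91 for blood, from 4.33 to 4.43 and 4.197 to 4.45 for endothelium, and from 5.18 to 5.34 and 5.24 to 5.37 for fibroblasts. The doses overlapped in each list, and none of these markers reached an unadjusted p below 0.05 between them. Of 17687 genes measured, 11970 were above background on all 6 arrays. The arrays correlated at 0.9896 to 0.9930 within a dose and at 0.9891 to 0.9941 between doses.

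The response was small, and most of the genes called were mitotic and fell. With limma, 10 genes fell and 1 rose once the replicate number was held as a block, and 9 of the 10 that fell act in mitosis or cytokinesis: AURKA, CCNB1, PRC1, PSRC1, GAS2L3, KIF14, CENPE, DEPDC1 and KIF23. The tenth was TRIM59, and the gene that rose was KLK6. Their falls lay between −0.42 and −0.76 in log2 units, which is a loss of 25.2% to 41.0% of the signal, and KLK6 rose by 1.13.

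Without the block, limma called 0 of 17687 genes at an adjusted p (Benjamini-Hochberg) below 0.05, or 0% in either direction, with a lowest adjusted p of 0.105. An unadjusted p below 0.05 was reached by 583 genes, 269 lower (1.52%) and 314 higher (1.78%). With the replicate number as a block, limma called 10 genes lower (0.0565%) and 1 higher (0.00565%), with a lowest adjusted p of 0.00431, and 369 genes were lower (2.09%) and 408 higher (2.31%) at an unadjusted p below 0.05. Same-numbered 4 h knockout arrays deviated together, so blocked values are given beside the others. The block was shared by all 8 groups and was not a pairing of the 6 arrays alone. The calls rest on single arrays: the blocked fit called 0 genes without unirradiated replicate 1 or without irradiated replicate 1, and 2 without replicate 2 of either dose, both among the 11. It called 6 without irradiated replicate 3, 5 of them among the 11, and 19 without unirradiated replicate 3, all 11 included. All 11 kept their direction in each of those fits. The median 95% interval over all genes, without the block or adjustment, was 0.31 to either side of the log2 change. In a typical gene a smaller change was not detectable with 3 arrays against 3. Calls by adjusted p asked for more: AURKA, at −0.45, had an adjusted p of 0.105 without the block (limma).

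**Figure D1:**
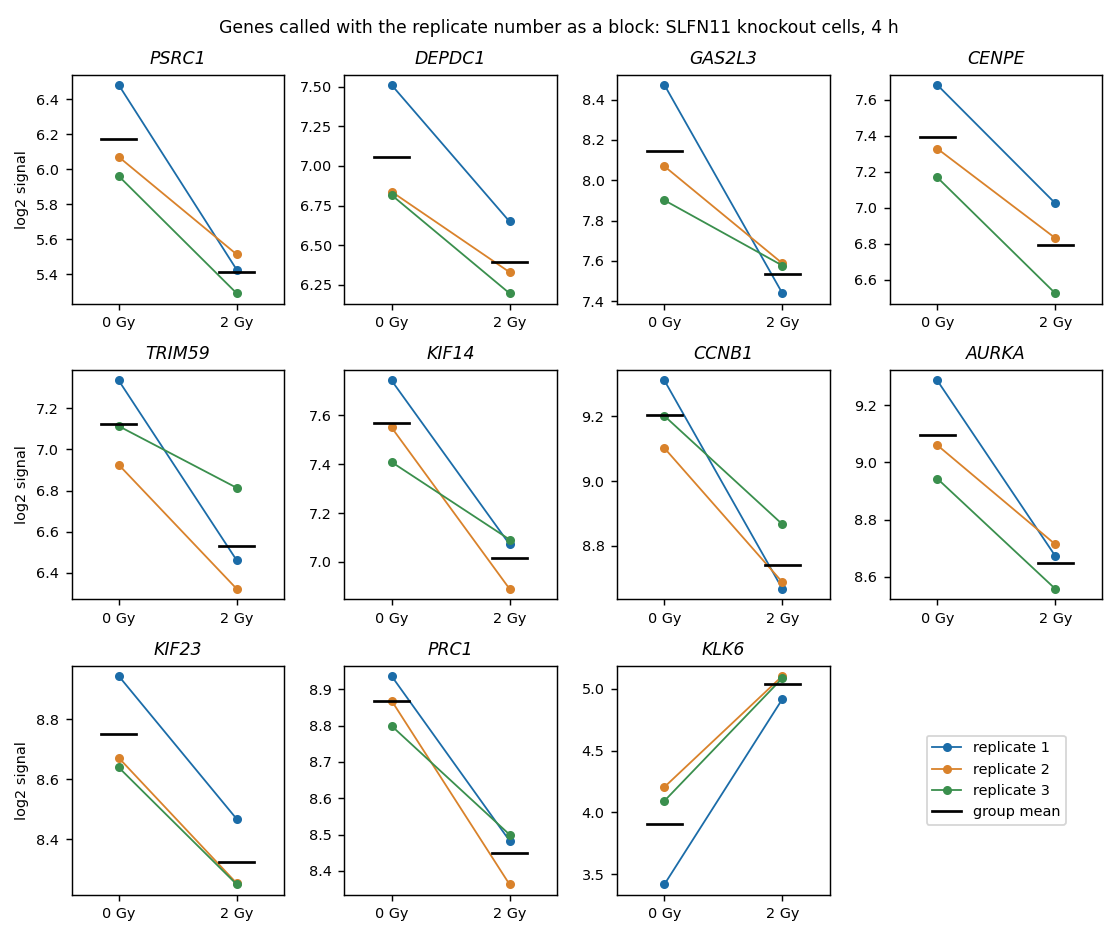
Log2 signal (vertical axes, each on its own range) of the 11 genes called with the replicate block, on the 3 unirradiated and 3 irradiated knockout arrays at 4 h; lines join arrays of the same replicate number and black bars are group means. The 10 lower genes lie lower at 2 Gy in every same-numbered pair, and KLK6 lies higher in all 3.

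Mitosis is covered by 6 lists, with 122 of their 126 genes measured and all 122 above background on all 6 arrays. Their median log2 change was −0.19, against 0.0046 over all genes, and the pairs of replicates 1, 2 and 3 gave −0.29, −0.19 and −0.14. At an unadjusted p below 0.05, 51 of the 122 (41.8%) were lower and 0 were higher, beside 1.52% and 1.78% of all genes, and with the block 64 were lower, beside 2.09%. In 50 of them (41.0%) every irradiated array lay below every unirradiated one, beside 3.54% of all genes, and in 0 every irradiated array lay above, beside 4.36%. In 78 (63.9%) all 3 pairs were lower, beside 13.3% of all genes. The mean level of the 122 genes was 7.96, 7.82 and 7.79 on the unirradiated arrays and 7.67, 7.62 and 7.65 on the irradiated ones, so unirradiated replicate 1 stood highest, and the groups did not overlap. Without that array, 31 of the 122 were lower at an unadjusted p below 0.05. The lists were chosen with earlier results of these data known, so these shares describe the lists and do not test them. In a bulk measurement, fewer cells in G2 and mitosis and less mitotic RNA per cell cannot be told apart.

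**Figure D2:**
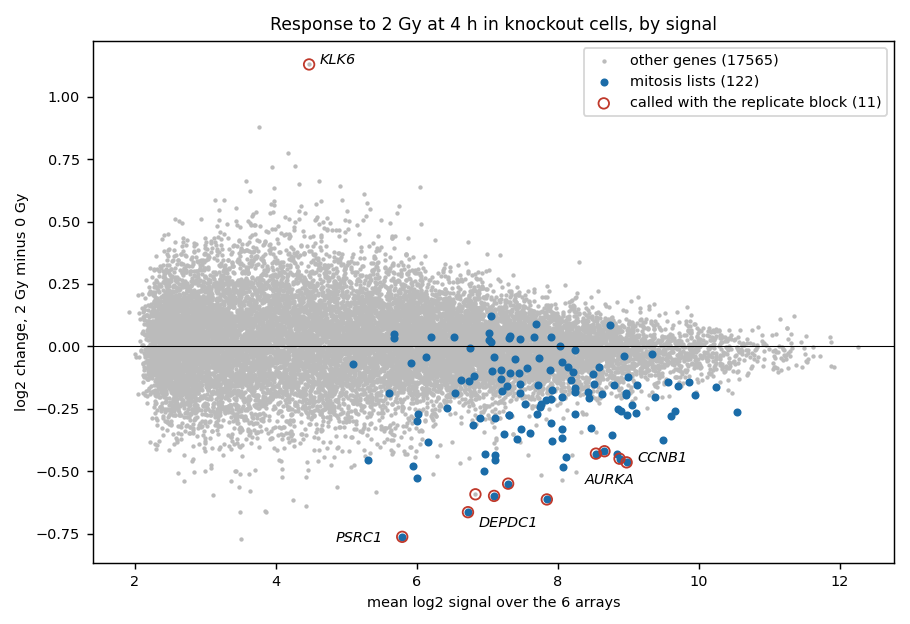
Log2 change at 4 h, 2 Gy minus 0 Gy (vertical axis), against mean log2 signal over the 6 knockout arrays (horizontal axis), for 17687 genes; blue points are the 122 mitosis genes and red circles the 11 genes called with the replicate block. The blue points lie mostly below 0, with a median of −0.19, and the spread of the grey points is widest at low signal.

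Promoters of 5 of the called genes are shown because their letters carry the elements that late cell cycle transcription is known to use. The stretches are the 100 bases before the annotated start in RefSeq (GRCh38.p14), with matches to a CHR element or a CCAAT box in capitals: KIF23 at chr15:69414249-69414348 (plus strand), PRC1 at chr15:90994536-90994635 (minus strand), DEPDC1 at chr1:68497083-68497182 (minus strand), PSRC1 at chr1:109283146-109283245 (minus strand) and CCNB1 at chr5:69167050-69167149 (plus strand).
KIF23: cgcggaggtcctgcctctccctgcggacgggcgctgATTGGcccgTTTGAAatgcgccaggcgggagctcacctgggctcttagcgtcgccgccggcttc
PRC1: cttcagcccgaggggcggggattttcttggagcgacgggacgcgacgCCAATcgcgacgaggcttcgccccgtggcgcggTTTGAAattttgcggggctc
DEPDC1: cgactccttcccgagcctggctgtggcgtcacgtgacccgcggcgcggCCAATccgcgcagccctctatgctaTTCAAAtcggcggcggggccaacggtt
PSRC1: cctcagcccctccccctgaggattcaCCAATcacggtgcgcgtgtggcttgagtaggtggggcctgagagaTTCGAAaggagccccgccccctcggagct
CCNB1: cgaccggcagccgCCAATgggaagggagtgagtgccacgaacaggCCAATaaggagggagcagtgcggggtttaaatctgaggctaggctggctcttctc
The first 4 hold 1 CHR match and 1 CCAAT match each. In DEPDC1 they begin 27 and 52 bases before the start, in PRC1 20 and 53 bases before it. CCNB1 holds 2 CCAAT matches, which begin 87 and 55 bases before the start, and no CHR match in this window. KIF14, not shown, held a CCAAT match 22 bases before the start and a CHR match 1 base after it. The windows of CENPE and GAS2L3 held neither motif. Since the 5 were picked for their matches, they do not show how common such matches are among the called genes. Of the 11 called genes, 10 had an entry in the promoter table.

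The cyclins and kinases that drive cells into mitosis had a median log2 change of −0.23 over 26 measured genes, of which 2 fell with the block and 14 were lower at an unadjusted p below 0.05 (16 with the block). CCNB1, the cyclin B subunit that activates CDK1, had signals of 9.31, 9.10 and 9.20 without irradiation and 8.67, 8.69 and 8.87 after 2 Gy. The groups did not overlap, and CCNB1 fell by 0.46 ± 0.08 on the log2 scale (SE, limma with the block, adjusted p = 0.0104; 0.117 without it), or 27.5%. AURKA, the Aurora A kinase of centrosomes and spindle poles, read 9.29, 9.06 and 8.94 at 0 Gy and 8.67, 8.71 and 8.56 at 2 Gy. It fell by 0.45 ± 0.07 (limma with the block, adjusted p = 0.00431; 0.105 without it), with every irradiated array below every unirradiated one. TTK, the spindle checkpoint kinase MPS1, had a change of −0.44 that missed the threshold (limma with the block, adjusted p = 0.0913). PLK1, the Polo kinase of mitotic entry, read 10.74, 10.68 and 10.60 at 0 Gy and 10.25, 10.45 and 10.54 at 2 Gy, without overlap, but its change of −0.26 did not pass either (adjusted p = 0.15 with the block). CCNB2, CCNA2 and CDK1 had changes of −0.25, −0.20 and −0.19, none of which passed, and the CDK1 groups overlapped.

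Genes of kinesin motors and spindle assembly were lower throughout: all 27 measured had a negative log2 change, with a median of −0.27, 4 fell with the block and 17 were lower at an unadjusted p below 0.05 (20 with the block). PSRC1, a microtubule-binding protein of the mitotic spindle, read 6.48, 6.07 and 5.96 without irradiation and 5.43, 5.51 and 5.29 after it. It fell by 0.76 ± 0.13 (limma with the block, adjusted p = 0.0104), which is 41.0% and the largest fall among the called genes. CENPE, the kinesin that carries chromosomes to the spindle equator, read 7.68, 7.33 and 7.17 at 0 Gy and 7.02, 6.83 and 6.53 at 2 Gy. Its groups did not overlap, each pair was lower, and it fell by 0.60 ± 0.12 (limma with the block, adjusted p = 0.0233). KIF14, a kinesin of the central spindle, read 7.74, 7.55 and 7.41 at 0 Gy and 7.07, 6.89 and 7.09 at 2 Gy, a fall of 0.55 ± 0.10 (adjusted p = 0.0196 with the block). KIF23, the kinesin of the centralspindlin complex, read 8.94, 8.67 and 8.64 at 0 Gy and 8.47, 8.25 and 8.25 at 2 Gy, a fall of 0.43 ± 0.08 (adjusted p = 0.0233 with the block). Both were separated between the doses on all arrays.

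Cytokinesis, the final separation of the daughter cells, had the lowest median of the 6 lists, −0.35 over 10 genes, all of them with negative changes. With the block 3 fell, and 8 were lower at an unadjusted p below 0.05 (9 with the block). PRC1, which bundles the microtubules of the spindle midzone, read 8.94, 8.87 and 8.80 at 0 Gy and 8.48, 8.36 and 8.50 at 2 Gy, a fall of 0.42 ± 0.07 (limma with the block, adjusted p = 0.0104). GAS2L3, a linker of actin and microtubules at the midbody, read 8.47, 8.07 and 7.90 at 0 Gy and 7.44, 7.59 and 7.58 at 2 Gy, a fall of 0.61 ± 0.11 (adjusted p = 0.0162 with the block). In both genes all irradiated arrays were below all unirradiated ones, and in GAS2L3 the first unirradiated array stood well above the other 2. DEPDC1 read 7.51, 6.84 and 6.82 at 0 Gy and 6.65, 6.33 and 6.20 at 2 Gy, a fall of 0.66 ± 0.13 (adjusted p = 0.0233 with the block). In DEPDC1, too, the first unirradiated array stood well above the other 2. RACGAP1, the partner of KIF23 in centralspindlin, had a change of −0.35 and missed the threshold (adjusted p = 0.0586 with the block).

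The remaining mitotic groups had smaller medians and no gene called. The kinetochore, centromere and cohesion list had a median of −0.11 over 31 genes, with 7 lower at an unadjusted p below 0.05 (11 with the block). CENPA, the histone variant that marks centromeres, had the largest change of that list, −0.50, and NDC80 of the outer kinetochore, CDCA8 of the chromosomal passenger complex and CENPF had changes of −0.38, −0.35 and −0.24. The condensin and mitotic chromosome list had a median of −0.15 over 10 genes, with 3 lower (5 with the block), and these 3 were NCAPG at −0.26, MKI67 at −0.28 and CDCA2 at −0.33. The anaphase-promoting complex, a ubiquitin ligase whose targets are destroyed so that cells can leave mitosis, and its partners had a median of −0.10 over 18 genes, with 2 lower (3 with the block). CDC20, its activator, read 9.75, 9.68 and 9.59 at 0 Gy and 9.12, 9.43 and 9.34 at 2 Gy, a change of −0.38 (limma with the block, adjusted p = 0.0586). CDC27, a subunit of the ligase itself, had a change of −0.19, and PTTG1, the securin that it targets, one of −0.20.

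**Figure D3:**
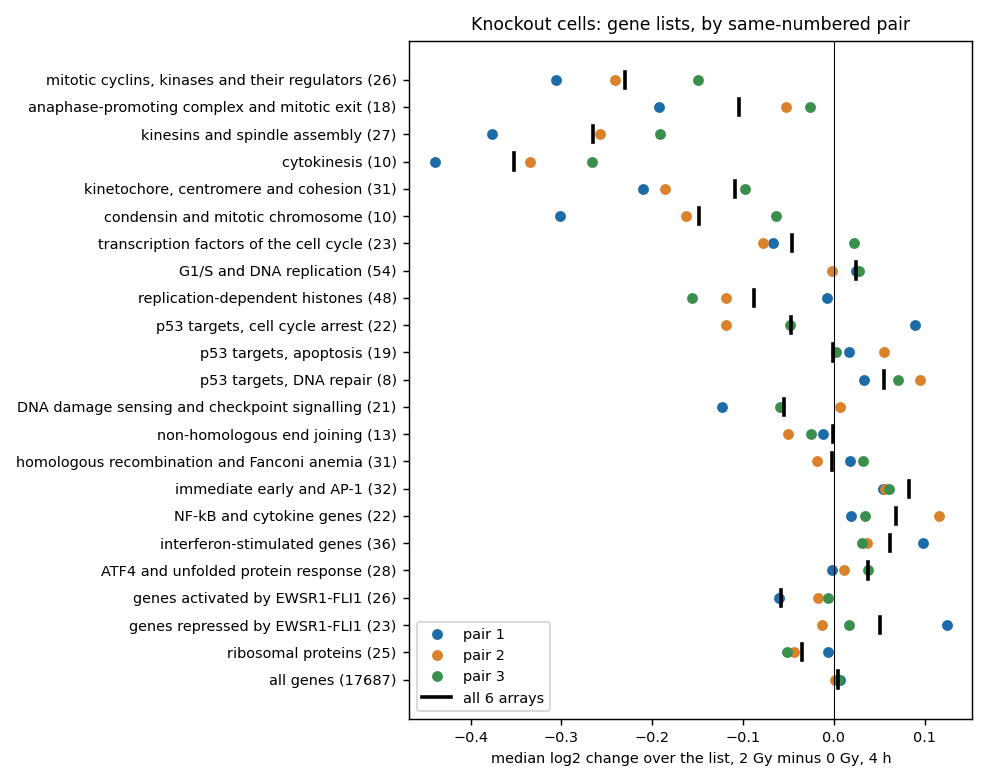
Median log2 change at 4 h, 2 Gy minus 0 Gy, over the measured genes of each list (number in brackets) in knockout cells; coloured points are the 3 same-numbered pairs of arrays and black bars the value from all 6 arrays. All 6 mitosis lists at the top lie below 0 in every pair, the first pair lowest, from −0.10 to −0.35 over all arrays, and the G1/S list lies at 0.02.

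The G1/S list and the transcription factors of the cell cycle had medians near 0, and the histone genes stood somewhat lower. The list of G1/S and DNA replication genes had a median of 0.02 over 54 genes, 19 negative and 35 positive, with 0 lower and 0 higher at an unadjusted p below 0.05, also with the block. CDT1, which loads the replicative helicase, had the largest change of that list, 0.23, and its inhibitor GMNN one of −0.12. The 48 replication-dependent histone genes had a median of −0.09 and 40 negative values. At an unadjusted p below 0.05, 0 were lower and 1 was higher (2 lower with the block). In 20 of the 48 (41.7%) all 3 pairs were lower, beside 13.3% of all genes. In 1 (2.1%) every irradiated array lay below every unirradiated one, beside 3.54% of all genes. H2BC8, for example, read 9.39, 9.24 and 9.51 at 0 Gy and 9.30, 8.83 and 9.26 at 2 Gy, with overlap. The transcription factors of the cell cycle had a median of −0.05 over 23 genes and 0 below that p (2 lower with the block). FOXM1, the factor that acts on late cell cycle promoters, read 9.79, 9.70 and 9.68 at 0 Gy and 9.64, 9.73 and 9.64 at 2 Gy, a change of −0.05 with overlapping groups.

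Among targets of p53, the transcription factor that DNA breaks stabilize, no gene was called. The list for cell cycle arrest had a median of −0.05 over 22 genes and that for apoptosis −0.00 over 19, with 1 gene (SFN, −0.42) and 0 genes lower at an unadjusted p below 0.05 and 0 higher in both, also with the block. Over all genes, 1.52% were lower and 1.78% higher at that p without the block. CDKN1A, the p21 inhibitor of cyclin-dependent kinases, read 5.32, 5.11 and 5.004 without irradiation and 5.55, 4.88 and 4.54 after it. The irradiated arrays spread to either side of the unirradiated ones, and the 95% interval of its log2 change of −0.16 ran from −0.62 to 0.30. MDM2, the ubiquitin ligase that p53 induces against itself, read 7.02, 7.40 and 7.36 at 0 Gy and 7.11, 7.21 and 7.36 at 2 Gy, a change of −0.04 with an interval from −0.33 to 0.26. The other readouts of p53 activity had overlapping groups too: GDF15 at 0.08, BAX at −0.01, TNFRSF10B at −0.03 and FAS, the death receptor, at −0.35. The p53 targets in DNA repair had a median of 0.06 over 8 genes and 0 below that p, with DDB2, the damage sensor of nucleotide excision repair, at 5.08, 4.86 and 4.99 without irradiation and 5.37, 5.14 and 5.27 after it. Every irradiated array of DDB2 lay above every unirradiated one, and its change of 0.29 was not called (limma, adjusted p = 0.9994 with the block and 0.9997 without it).

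Among DNA damage sensors, repair factors and stress genes no gene was called either. Over all genes, 1.52% were lower and 1.78% higher at an unadjusted p below 0.05 without the block. A count of 1 or 2 such genes in a list therefore says little about that list. Of 21 genes of damage sensing and checkpoint signalling, 1 was lower at an unadjusted p below 0.05, NBN of the MRN complex at −0.33. ATM, CHEK1 and H2AX had changes of 0.04, −0.06 and −0.05. Of 13 genes of non-homologous end joining 1 was higher, PAXX at 0.23, and of 31 genes of homologous recombination and the Fanconi anemia pathway 1 was lower, RMI2 at −0.27. The immediate early and AP-1 list had a median of 0.08 over 32 genes with 2 higher and 0 lower (3 higher with the block). NR4A1, an orphan nuclear receptor induced within minutes by many stimuli, read 6.43, 6.49 and 6.60 at 0 Gy and 6.77, 6.97 and 7.04 at 2 Gy, without overlap, and its change of 0.42 did not pass (limma with the block, adjusted p = 0.266). CCN1, the other one, had a change of 0.46, while JUN and FOS were at 0.04 and 0.08. The NF-kB and cytokine list and the ATF4 and unfolded protein response list had 0 genes below that p among 22 and 28. The interferon-stimulated list had 1 lower and 1 higher among 36, and its lowest change was −0.44. The higher one, IRF1, was at 0.49 on arrays near background. Its groups overlapped, and the pair of replicate 3 was lower at 2 Gy (−0.27). Genes activated by EWSR1-FLI1 had a median of −0.06 over 26 genes with 1 lower (CAV1, −0.13), and genes repressed by it a median of 0.05 over 23 with 1 higher (CCN1).

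KLK6, a secreted serine protease of the kallikrein cluster, was the only gene that rose with the block. Its signals were 3.42, 4.21 and 4.09 without irradiation and 4.92, 5.10 and 5.09 after 2 Gy, the first unirradiated one below that array's background. The groups did not overlap, and the rise was 1.13 ± 0.22 (limma with the block, adjusted p = 0.0233; 0.117 without it). Of the 15 kallikrein genes measured, KLK6 was the only one below an unadjusted p of 0.05, and the list's median was 0.03.

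The 15 largest rises were taken from genes with separated groups, an unadjusted p below 0.05 and the same direction in all pairs. Their mean also had to lie above background at 1 or both doses. All 15 had low to middling signals, with unirradiated means between 3.16 and 5.47. Of the 15, 6 were above background on all 6 arrays. Another 3 were above it on no unirradiated array and passed through the irradiated arrays alone. After KLK6 came MYO7A, an unconventional myosin, with 3.26, 3.32 and 3.36 at 0 Gy and 3.99, 4.52 and 4.08 at 2 Gy. Its unirradiated signals were not well above background, and its change of 0.88 missed the threshold (limma with the block, adjusted p = 0.0818), at a ratio of at least 1.43-fold by the background level. The same holds for CA4, a carbonic anhydrase, at least 1.17-fold higher. L1CAM, a cell adhesion molecule of neurons, and ASIC1, an acid-sensing ion channel, had changes of 0.72 and 0.56, also without a call.

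Among the 15 largest falls by the same rule were 5 mitosis genes (PSRC1, DEPDC1, GAS2L3, CENPE and KIF14), and 7 of the 15 had an unirradiated mean above 6. TRIM59, a ubiquitin ligase of the TRIM family, read 7.33, 6.93 and 7.11 at 0 Gy and 6.46, 6.32 and 6.81 at 2 Gy. It fell by 0.59 ± 0.11 (limma with the block, adjusted p = 0.0233), with no overlap. FAM72A, at −0.53 (adjusted p = 0.0913 with the block), has near-identical copies in the genome whose signals an array can mix. OGA, the enzyme that removes O-GlcNAc from proteins, had a change of −0.58 at unirradiated signals of 5.50 to 5.84. ANXA4, an annexin, and PRKCA, a protein kinase C, had changes of −0.77 and −0.66 at signals near background, and ANXA4 was not well above it on the irradiated arrays, so that its ratio is at least 1.20-fold lower.

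At 24 h after the same dose, the mitotic genes of the knockout cells stood near 0. The 122 mitosis genes had a median log2 change of −0.02 at 24 h against −0.19 at 4 h, and 103 of them were lower at 4 h than at 24 h. The difference between both times was called for 0 of 17687 genes (0%; 577 at an unadjusted p below 0.05, also 0 called with the block). At an unadjusted p below 0.05, 27 mitosis genes were lower at 4 h than at 24 h, beside 243 of all genes (1.37%). CCNB1 had a change of 0.01 at 24 h, and its difference between the times was −0.48 with a 95% interval from −0.76 to −0.20. For AURKA the difference was −0.45, with an interval from −0.70 to −0.21. Across the 122 genes, the changes at 4 h and 24 h correlated at 0.21, with no array shared.

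In parental cells at 4 h mitotic transcripts were lower too, with larger changes in most. The median over the 122 genes was −0.28 in parental cells and −0.19 in knockout cells, 88 of the 122 had the higher change in knockout cells, and the changes correlated at 0.83 (Spearman 0.83, n = 122 genes), against 0.19 over all genes. No array was shared, but genes are not independent and all arrays were normalized by the same procedure. All 10 genes that fell in knockout cells also fell in parental cells without the block (limma, highest adjusted p 0.00176), by −0.58 to −0.98. At an unadjusted p below 0.05, 269 genes were lower in knockout cells and 664 of 17687 in parental cells. Both lists held 89 genes, 49 of them mitosis genes. These 89 were 33.1% of the first list, beside the 664 of 17687 genes lower in parental cells. They were 13.4% of the second, beside 1.52% of all genes lower in knockout cells. Of the 314 higher genes, 12 were among the 519 of 17687 higher in parental cells. They were 3.8% of the first list, beside the 519 of 17687 genes higher in parental cells. They were 2.3% of the second, beside 1.78% of all genes higher in knockout cells, so both shares were near those of all genes.

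The difference between both lines' responses was called for 0 of 17687 genes (0%; 461 at an unadjusted p below 0.05, also 0 called with the block). At an unadjusted p below 0.05, 14 of the 122 mitosis genes had a higher change in knockout cells and 0 a lower one, beside 229 of all genes higher (1.29%). PLK1 changed by −0.57 in parental cells, and the difference of 0.31 had a 95% interval from 0.11 to 0.51. For CCNB1 the difference was 0.29 with an interval from 0.01 to 0.58, and for PRC1 0.16 with one from −0.08 to 0.40. KLK6 had a change of 0.06 in parental cells and a difference of 1.07 (0.40 to 1.74), which was not called either. The median interval of a difference reached 0.44 to either side.

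**Figure D4:**
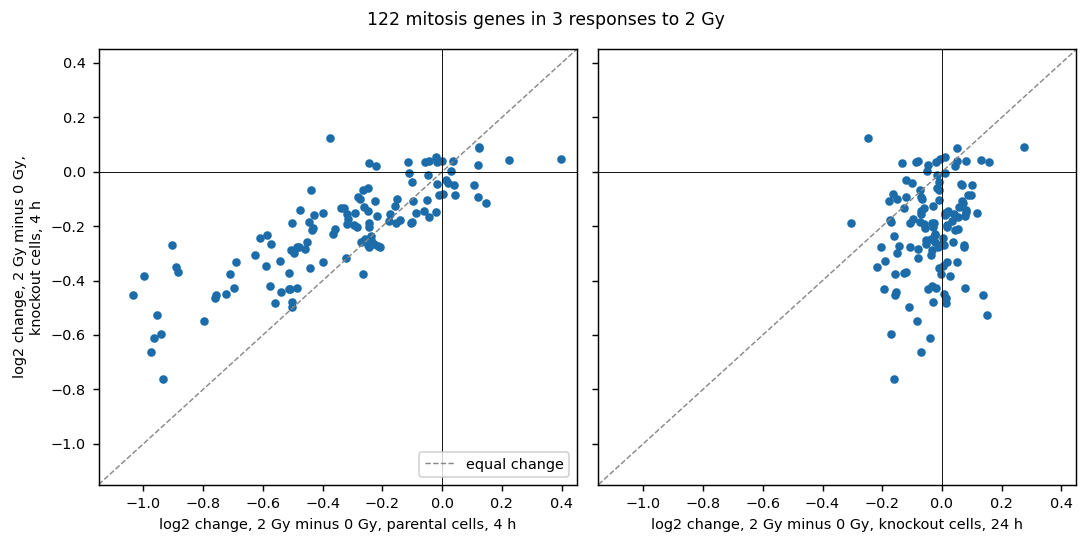
Log2 change of the 122 mitosis genes in knockout cells at 4 h (vertical axis) against their change in parental cells at 4 h (left) and in knockout cells at 24 h (right); the dashed line marks equal change. In the left panel the points follow the parental changes and 88 of 122 lie above the line, with medians of −0.19 and −0.28, and in the right panel they stand around a median of −0.02 on the horizontal axis.

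Promoter letters were then set against the response over all genes. The motifs searched, on both strands, were the CHR forms TTTGAA and TTCGAA and the box CCAAT, in windows from 250 bases before to 50 after each RefSeq start. A CHR match and a CCAAT match can share at most 1 base, and a gene counted when any of its promoters held the motif. Of 35116 promoters in the table, 16.4% held a CHR form, 34.6% CCAAT and 6.38% both. Of the 14250 measured genes with an entry, 7.30% had a promoter with both, and of the 102 such mitosis genes 52 did (51.0%), with 1.41 and 1.24 promoters per gene. The share was highest for cytokinesis with 6 of 8 genes and kinesins with 17 of 25, and it was 3 of 44 in the G1/S list, where 27 of 44 held CCAAT, with or without a CHR form.

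Of the 1040 genes with both motifs, 60 (5.77%) were lower at an unadjusted p below 0.05, against 83 of the 7007 genes with neither (1.18%). Genes with CHR and no CCAAT in that promoter stood at 1.37%, as did genes with CCAAT only. Outside the mitosis lists the shares were 32 of 988 (3.24%) and 78 of 6996 (1.11%). Within the mitosis lists, the 52 genes with both had a median of −0.25 and 28 lower, and the 11 with neither a median of −0.25 and 5 lower. The 20 with CHR and no CCAAT in that promoter had a median of −0.11 and 5 lower, and the 19 with CCAAT only a median of −0.14 and 6 lower.

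**Figure D5:**
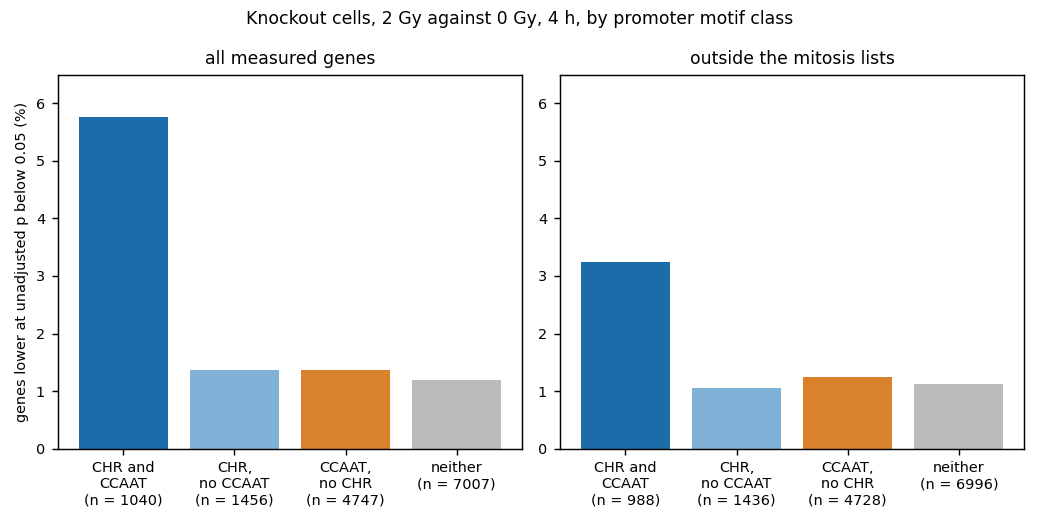
Percent of genes lower after 2 Gy at an unadjusted p below 0.05 (vertical axes) in knockout cells at 4 h, by the motifs in their promoters, for all measured genes with a promoter entry (left) and for those outside the mitosis lists (right); numbers of genes are under the bars. The bars for both motifs, 5.77% and 3.24%, stand above the other 3 in each panel.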

How the data were processed

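RNA from 24 samples of 2 lines, 8 groups of 3, was hybridised to Affymetrix arrays. The deposited table holds log2 values made by the authors with RMA in Affymetrix Expression Console 1.1, per the submitters' processing notes; no read depth applies, and the number of arrays limits the precision. Of 24351 probe sets, 17709 carry 1 symbol in the platform annotation, 2903 are controls and 3739 have no single symbol. For the 20 genes with several probe sets, the probe set with the highest mean signal over the arrays was kept.

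All changes come from limma 3.58.1 (R 4.3.3), fitted to 8 group means on 24 arrays with variances moderated along signal, two-sided, with Benjamini-Hochberg adjustment over 17687 genes at 0.05. The replicate number in the titles became a block because same-numbered 4 h knockout arrays of both doses deviated from their group means together. Correlations over all genes were 0.27, 0.15 and 0.24, against −0.23 to −0.0017 for different numbers. Deviations from a group mean sum to 0, so positive values for the same number force lower ones for different numbers. That contrast is therefore partly built in. In parental arrays at 4 h the same numbers gave 0.094, 0.21 and 0.41, and different numbers reached 0.15. In knockout arrays at 24 h the same numbers gave 0.13, 0.22 and 0.24. The pairing comes from the data, since the labels give the number no meaning. In the fit the block was a set of offsets shared by all 8 groups. Deviations were not compared between lines or times, so these correlations do not bear on that sharing. With the block on the compared arrays alone, 18 genes were called, 10 of them among the 11. RMA is known to compress changes of dim probe sets. The fit was tested on simulated data. Alternatives varied the arrays fitted, the trend, weights, robust variances, scaling, dim genes and left-out arrays.

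Named genes were called with or without the block, or were the 15 largest falls and rises with separated groups, or up to 4 of each list by p, or a set of standard readouts, or the 5 lowest p in each difference of responses. The gene lists and the comparison were chosen with earlier results of these data known. Plots used matplotlib 3.10.9.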

Additional observations from a re-analysis of the deposited data

Results flagged for a closer look

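Among 3739 probe sets without a single gene symbol, which the comparisons of genes do not use, 1 was called with the replicate block when they were fitted together with the named ones (limma, log2 change 0.98 ± 0.20, adjusted p = 0.0461). Its mean was 4.07 without irradiation and 5.05 after 2 Gy, and 0 of them were called without the block, where the lowest adjusted p was 0.33 and 115 had an unadjusted p below 0.05.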

How the results depend on the processing

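The number of genes called depended on the block and on single arrays. Without a block it was 0, and it was 11 with the block, 18 with the block on the 6 compared arrays only, 1 without the intensity trend, 5 with array weights and 0 to 1 when arrays were left out. From the 11 of the block it went to 18 on the 6 compared arrays, 2 without the trend, 17 with array weights and 0 to 19 when arrays were left out. Leaving out arrays moved the mitosis genes lower at an unadjusted p below 0.05 from 51 to between 31 and 62. The mitosis median stayed between −0.23 and −0.14 over all its alternatives, and both differences of responses had 0 calls (limma) under every alternative run. Of 77 genes named, 67 kept their direction under all 17 alternatives, as did all 26 mitosis genes among them.

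The 10 genes whose direction turned lay near 0. With array weights BAX was 0.013 and FOS −0.01, and with quantile normalization BAX was 0.021. Without single arrays, CDKN1A ran from −0.44 to 0.067, MDM2 from −0.16 to 0.031, GDF15 from −0.017 to 0.22, BAX from −0.053 to 0.077, TNFRSF10B from −0.092 to 0.063, ATM from −0.00 to 0.10, CHEK1 from −0.13 to 0.018, JUN from −0.034 to 0.10, FOS from −0.059 to 0.26 and NKX2-2 from −0.24 to 0.035. The cause was not tested. Having 3 arrays a group limits what single genes can show, and signals near background limit the dim genes.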

Other observations

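Outside the mitotic genes, the differences of response with the lowest p were small groups of dim or variable genes, none of them called. PPP1R13B, the p53-binding protein ASPP1, read 6.47, 6.27 and 6.02 in unirradiated and 5.87, 5.99 and 5.78 in irradiated knockout cells at 4 h, and 6.43, 6.10 and 5.83 against 6.51, 6.78 and 6.48 in parental cells. Its groups did not overlap in either line, and the difference of responses was −0.84 ± 0.22 (limma, adjusted p = 1, also 0.999 with the block). The other 4 genes of that rank, POTED, GPX5, IL1B and RDH16, were above background on 0 of the 6 arrays. Between 4 h and 24 h in knockout cells the lowest p belonged to SLIT2, a secreted guidance cue, with 4.99, 4.47 and 4.58 against 3.92, 4.17 and 4.38 at 4 h, and 3.92, 4.24 and 4.18 against 5.25, 4.44 and 4.62 at 24 h. Its irradiated arrays were the lower ones at 4 h and the higher ones at 24 h, with a difference of −1.18 ± 0.28 (limma, adjusted p = 0.9998; 0.597 with the block).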
